A study of Mus musculus with 10 samples.

Results

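Mouse epiblast-like cells (EpiLC) on day 3 (d3) of their differentiation from embryonic stem cells (ESC) were compared with EpiLC on day 2 (d2), the stage from which the study induced primordial germ cell-like cells (PGCLC). The comparison holds all 289 cells labelled d2 EpiLC and all 399 cells labelled d3 EpiLC, 688 of the 2782 cells of the E14Tg2a differentiation table, chosen by the suffix of the cell barcode alone. E14Tg2a is an established male mouse ESC line and is labelled wild type in both groups. ESC of both groups had been adapted to 2i+LIF medium, which holds a MEK inhibitor, a GSK3β inhibitor and LIF, and were then plated on fibronectin in N2B27 medium with 20 ng/ml Activin A, 12 ng/ml bFGF and 10 µl/ml KSR. The growth description is the same for both groups and speaks of 2 days, so day 3 is known from the sample's name only. Cells of both groups were dissociated with TripleExpress and profiled with droplet-based 3' single-cell RNA sequencing (10x Genomics, v2 chemistry). Each group is 1 library of 1 line, and day of differentiation, culture and library preparation cannot be told apart. ESC in 2i+LIF (2i ESC), d1 EpiLC and epiblast stem cells (EpiSC, passaged in Activin A and bFGF) of the same table give the levels before and after, also with 1 library each.

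EpiLC stand for the formative epiblast, the state after naïve pluripotency and before gastrulation in which mouse epiblast cells can answer BMP signals by becoming primordial germ cells (PGC). In the embryo this window is short, and it closes while the genome gains DNA methylation through *Dnmt3a* and *Dnmt3b* and while the cells become primed for the germ layers. Activin A and Nodal signal through SMAD2 and SMAD3, FGF through the ERK kinases, and both keep primed cells pluripotent.

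Unique molecular identifiers (UMIs) count captured mRNA molecules. The d2 library held 11155833 UMIs with a median of 35956 per cell, and the d3 library 14082462 with a median of 31893. The median share of mitochondrial UMIs was 3.17% in d2 EpiLC and 2.84% in d3 EpiLC, and the 2 libraries shared 0 cell barcodes. A gene's level is its summed UMIs in a library, scaled to a library of 1000000 UMIs (counts per 1000000, CPM), with exact 95% Poisson intervals, and ratios of CPM have exact conditional 95% intervals. Both cover counting error only, and since cells are not replicates no test between the libraries was made. On 20 principal components, 396 of the 399 d3 cells had most of their 20 nearest neighbors among d3 EpiLC, 2 among d2 EpiLC and 1 among 2i ESC, so nearly all d3 cells were nearest to cells of their own library.

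A gene is called higher or lower here when CPM + 1 differed at least 2-fold between the libraries, among the 13240 genes with at least 10 UMIs over both. By this rule 455 genes (3.44%) were higher and 411 genes (3.10%) were lower in d3 EpiLC. Counts given for gene lists are to be read against these shares. The median log2 ratio of d3 over d2 was -0.02 and 90% of genes lay between -0.85 and 0.87, so most genes kept their level over the day within 2-fold. Among the 694 genes of at least 200 CPM in either library, 9 were higher and 16 lower. The genes farthest from equal levels differed more upwards than downwards: the 15 highest log2 ratios among genes with at least 100 UMIs ran from 3.04 to 4.56, and the 15 lowest from -3.17 to -2.11.

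**Figure D1:**
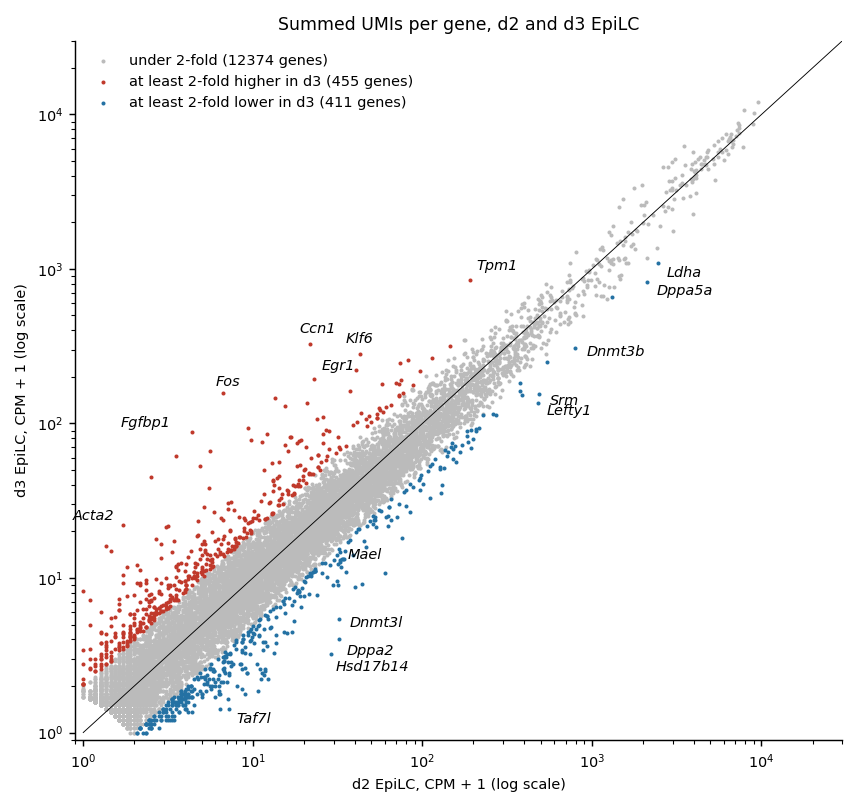
Each point is 1 of 13240 genes, with its level in d2 EpiLC on the horizontal and in d3 EpiLC on the vertical axis (CPM + 1, log scales), and the line marks equal levels. Red points (455) were at least 2-fold higher and blue points (411) at least 2-fold lower in d3 EpiLC, and *Fos* and *Fgfbp1* lie farthest above the line.

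Immediate early genes had the highest median ratio of the lists by role. They encode transcription factors and feedback inhibitors that cells switch on within minutes of growth factor, adhesion or stress signals. Of 16 listed genes, all with at least 10 UMIs, 14 were higher (87.5%, against 3.44% of all genes) and 0 lower in d3 EpiLC, and their median log2 ratio was 2.90, against -0.02 over all genes. *Fos* (ENSMUSG00000021250, chromosome 12, 85473890 to 85477273, GRCm38), a subunit of the AP-1 transcription factor, was at 5.65 CPM in d2 EpiLC and 155 CPM in d3 EpiLC, a ratio of 27.5-fold (95% interval 21.4 to 35.9). The other AP-1 subunits *Jun*, *Junb* and *Fosb* were at 12.5 and 145 CPM, 14.4 and 129 CPM and 3.85 and 52.1 CPM in d2 and d3 EpiLC. *Egr1* and *Egr2*, zinc finger factors of the serum response, were at 22 and 192 CPM and at 0.359 and 15.2 CPM. All of these stood far apart between the libraries, while *Jund* with 153 and 263 CPM and *Ier2* with 105 and 203 CPM were the listed members that stayed under 2-fold.

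Genes that dampen these signals were higher too. *Zfp36*, whose protein speeds the decay of cytokine mRNAs, was at 4.57 and 65.3 CPM in d2 and d3 EpiLC, and *Dusp1*, a phosphatase of MAP kinases, at 18.3 and 76.8 CPM. *Atf3*, *Nr4a1*, *Klf6* and *Btg2* had ratios of 7.30, 8.75, 6.74 and 7.52. Outside the list, *Gadd45b*, a stress sensor, was at 2.51 and 60.7 CPM, *Egr4* at 0.448 and 14 CPM, and *Fosl2*, another AP-1 subunit, had 0 UMIs in d2 EpiLC and 102 in d3 EpiLC, at least 26.9-fold higher against a floor of 3 counts for the library.

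Immediate early genes were lower at every other stage compared here. Their summed level was 1834 CPM in d3 EpiLC, against 260.0 CPM in 2i ESC, 356 CPM on day 1, 418 CPM on day 2 and 526 CPM in EpiSC, so d3 EpiLC was the highest of the 5 stages. The difference ran through nearly the whole library. Immediate early genes made up a median of 0.0392% of a cell's UMIs in d2 EpiLC and 0.181% in d3 EpiLC, and 373 of 399 d3 cells (93.5%, 90.6% to 95.7%) lay above the 95th percentile of d2 cells. Of 13 heat shock genes, 1 was higher (7.69%, against 3.44% of all genes), *Hspa1a* with 3 UMIs in d2 and 28 in d3 EpiLC. In all, 5 had a ratio above 1 and 8 below, and the summed level was 0.768 times that of d2 EpiLC. The log2 ratio was 0.77 for *Hspa1b* and 0.54 for *Dnajb1*, but -0.83 for *Hspa8*, -0.78 for *Hsp90aa1* and -0.92 for *Hspd1*. Whether stress bears on these levels was not tested.

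**Figure D2:**
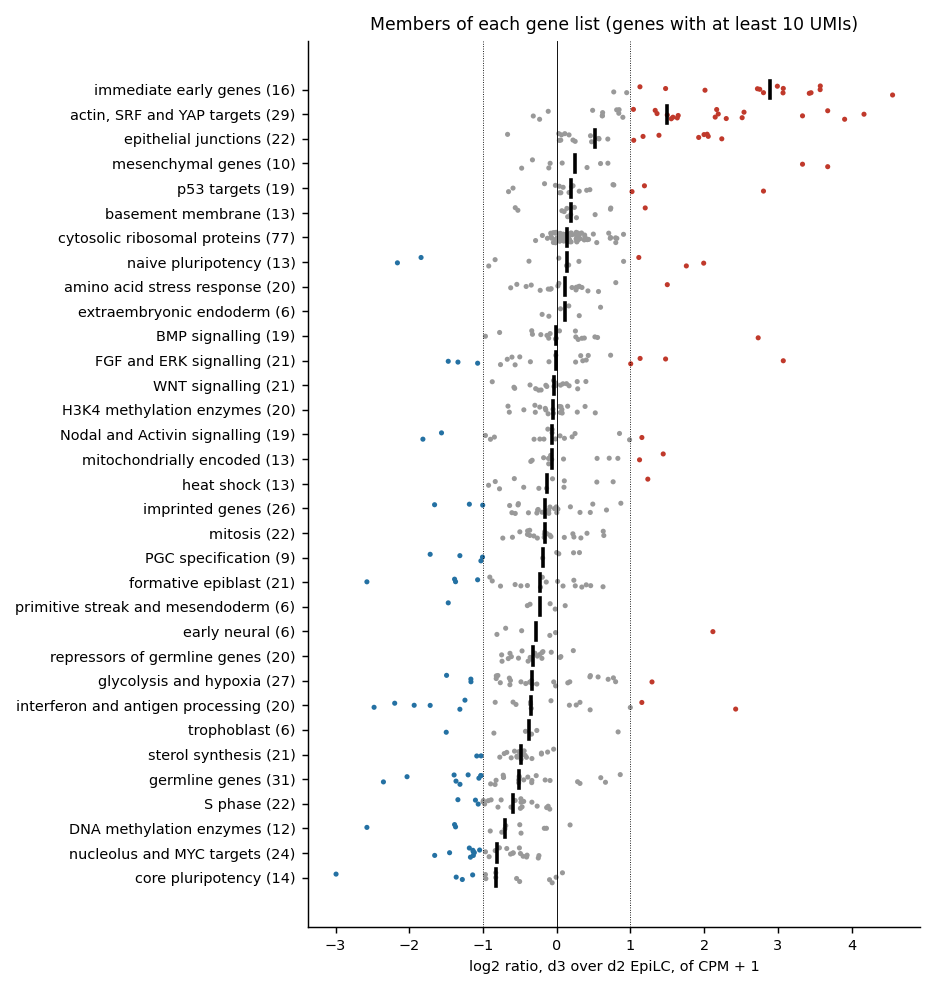
Each point is 1 gene of a list, placed by its log2 ratio of CPM + 1 in d3 over d2 EpiLC, with genes of at least 2-fold difference in red (higher) or blue (lower), and the bar is the median of the list. The number of genes is in parentheses. Immediate early genes and targets of actin signaling lie to the right, core pluripotency, nucleolar and DNA methylation genes to the left.

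Other groups of genes were also read in the 26 d3 cells whose share of immediate early genes did not exceed the 95th percentile of d2 EpiLC. In these cells the summed level relative to d2 EpiLC was 1.24 (95% interval 1.12 to 1.38) for the immediate early genes themselves, against 4.39 in all d3 cells, a difference fixed by how the cells were chosen. It was 0.548 (95% interval 0.505 to 0.593) for DNA methylation genes, against 0.481, and 0.610 (95% interval 0.572 to 0.650) for genes of S phase, against 0.603. It was 1.62 (95% interval 1.57 to 1.67) for targets of actin signaling, against 1.81, and 0.697 (95% interval 0.671 to 0.725) for core pluripotency genes, against 0.528. For these lists the intervals in the 26 cells excluded 1. The split was chosen after the values had been seen, and whether these differences depend on immediate early genes was not tested. For PGC specification it was 0.782 (95% interval 0.637 to 0.950), against 0.443, and for germline genes 0.986 (95% interval 0.883 to 1.10), against 0.789, so the interval for germline genes included 1 in these 26 cells. *Dnmt3b* was at 343, *Dppa2* at 11.8, *Mael* at 19.7 and *Ccn1* at 102 CPM in them.

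Single genes did not all keep the sign of their log2 ratio in these 26 cells. Of 134 named or listed genes that differed 2-fold in all d3 cells, 11 had a log2 ratio of the opposite sign, 8 that were higher and 3 that were lower. The former were *Cxcl10*, *Egr2*, *Col4a2*, *Lats2*, *Dusp1*, *Hspa1a*, *Fosl1* and *Ankrd1*. The 26 cells held only 761957 UMIs in all. *Cxcl10*, *Egr2*, *Col4a2*, *Hspa1a*, *Fosl1* and *Ankrd1* had no UMI among them, so the pseudocount fixed their negative sign and no reversal is shown. *Egr2* and *Dusp1* belong to the immediate early list by which the 26 cells were chosen, so their direction there is not independent of that choice. The 3 that were lower in all d3 cells were *Ifitm1* at 44.6 CPM (1.47 times d2 EpiLC, 95% interval 1.003 to 2.099), *Tdrd12* at 26.2 CPM (1.26 times, 0.754 to 1.99) and *Dppa3* at 2.62 CPM (1.22 times, 0.140 to 4.91). *Dnmt3l* was at 22.3 CPM, 0.715 times d2 EpiLC with an interval of 0.412 to 1.16 that included 1. Of the 26 cells, 2 were among the 3 d3 cells nearest to other libraries, and these 2 held 11 of the 17 UMIs of *Dnmt3l*, 21 of 34 of *Ifitm1*, 5 of 20 of *Tdrd12* and both of *Dppa3*. In the other 24 cells *Dnmt3l* was at 8.38 CPM (0.269 times d2 EpiLC, 95% interval 0.0979 to 0.591), *Ifitm1* at 18.2 CPM (0.599 times, 0.316 to 1.04) and *Tdrd12* at 20.96 CPM (1.003 times, 0.553 to 1.69). The summed level of PGC specification was then 0.529 (95% interval 0.409 to 0.674) and that of germline genes 1.0025 (95% interval 0.896 to 1.12). For core pluripotency genes it was 0.615 (95% interval 0.589 to 0.642).

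Another group that was higher in d3 EpiLC encodes the contractile cytoskeleton and secreted matrix proteins that respond to actin through the serum response factor SRF or to the Hippo pathway effector YAP. This list of 30 genes was drawn up after the values had been seen, so its counts describe it only: 18 of 29 were higher and 0 lower, with a median log2 ratio of 1.5. *Ccn1* (ENSMUSG00000028195, chromosome 3, 145646976 to 145649981), a matrix protein and classical YAP target, was at 20.9 CPM in d2 EpiLC and 327 CPM in d3 EpiLC, a ratio of 15.7-fold (95% interval 13.7 to 17.9). *Ccn2* and *Ankrd1*, also YAP targets, were at 15.7 and 81.2 CPM and 0.0896 and 3.98 CPM in d2 and d3 EpiLC, the latter from 1 UMI. *Thbs1*, the matrix protein thrombospondin, was at 1.52 and 44.4 CPM. For each of these genes the intervals of the levels did not overlap between the libraries.

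Smooth muscle and muscle actins, which SRF controls in muscle, were near 0 in d2 EpiLC and detectable in d3 EpiLC. *Acta2* was at 0.717 and 20.9 CPM, *Acta1* at 1.88 and 15.5 CPM and *Actc1* at 1.08 and 11.1 CPM in d2 and d3 EpiLC. *Tagln*, an actin-binding protein of smooth muscle, was at 8.34 and 93.2 CPM, and *Tpm1*, a tropomyosin, at 189 and 842 CPM, the highest d3 level of any gene with a ratio above 4. The calponins *Cnn1* and *Cnn2* and the focal adhesion genes *Vcl* and *Csrp1* had ratios of 3.17, 3.14, 2.64 and 4.65. The most abundant cytoplasmic actins differed from each other: *Actg1* was at 1515 and 2822 CPM and *Actb* at 1072 and 859.9 CPM, both under 2-fold and in opposite directions. These genes were not carried into EpiSC, where *Tagln* was at 2.12, *Acta2* at 0.705 and *Tpm1* at 191 CPM, close to or below their levels in d2 EpiLC.

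SRF binds the CArG box, and the 250 bases before the start of 4 genes that were higher in d3 EpiLC are shown because they hold it (RefSeq starts, GRCm38.p6; 5' to 3' in the direction of the gene, with the CArG box in capitals). *Acta1* is at chr8:123894776-123895025, - strand, *Actc1* at chr2:114052876-114053125, - strand, *Myl9*, a myosin light chain of smooth muscle with 17.1 and 52.2 CPM in d2 and d3 EpiLC, at chr2:156775214-156775463, + strand, and *Zfp36* at chr7:28379229-28379478, - strand.
Acta1: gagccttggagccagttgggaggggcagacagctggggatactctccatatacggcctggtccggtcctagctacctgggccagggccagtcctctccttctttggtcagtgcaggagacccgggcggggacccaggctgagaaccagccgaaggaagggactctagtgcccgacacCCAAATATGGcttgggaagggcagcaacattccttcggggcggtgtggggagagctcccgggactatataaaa
Actc1: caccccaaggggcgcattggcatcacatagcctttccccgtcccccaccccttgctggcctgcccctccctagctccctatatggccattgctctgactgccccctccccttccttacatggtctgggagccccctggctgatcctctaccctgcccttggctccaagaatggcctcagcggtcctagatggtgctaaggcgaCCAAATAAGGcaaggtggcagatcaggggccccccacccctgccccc
Myl9: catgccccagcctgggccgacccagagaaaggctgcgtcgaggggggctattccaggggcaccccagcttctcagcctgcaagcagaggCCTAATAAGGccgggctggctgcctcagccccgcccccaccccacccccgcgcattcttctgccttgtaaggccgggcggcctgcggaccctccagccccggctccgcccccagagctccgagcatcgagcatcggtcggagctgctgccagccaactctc
Zfp36: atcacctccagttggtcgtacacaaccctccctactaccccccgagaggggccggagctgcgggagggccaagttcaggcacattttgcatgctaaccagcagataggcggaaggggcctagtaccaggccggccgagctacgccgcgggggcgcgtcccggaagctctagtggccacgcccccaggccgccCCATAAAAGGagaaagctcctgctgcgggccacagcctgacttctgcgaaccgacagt

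The search was chosen after the values had been seen. Both strands were searched, and the CArG box pattern reads the same on either. The first base of the box lay 73 bases before the start of *Acta1*, 47 before *Actc1*, 161 before *Myl9* and 58 before *Zfp36*. Of 15 genes of the actin list that were higher and had a promoter in the RefSeq table, 5 held the box (*Acta1*, *Actc1*, *Cnn2*, *Myl9* and *Vcl*), as did 2 of 12 immediate early genes that were higher (*Egr2* and *Zfp36*), against 1.62% of all 27025 genes in the table. The actin list was written from known targets of SRF, so this share is not independent of it. A match describes the letters only.

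Epithelial genes were higher as well. Of 22 genes of cell junctions and keratin filaments, 8 were higher (36.4%, against 3.44% of all genes) and 0 lower, and the summed level was 1140.1 CPM in d2 and 1757 CPM in d3 EpiLC. The tight junction claudins *Cldn3*, *Cldn4* and *Cldn7* were at 14.4 and 71.9 CPM, 17.3 and 74.3 CPM and 96.5 and 218 CPM in d2 and d3 EpiLC. The keratins *Krt8*, *Krt18* and *Krt19* were at 15.1 and 65.8 CPM, 69.1 and 182 CPM and 3.76 and 18.0 CPM. *Cdh1*, E-cadherin of the adherens junction, and *Epcam* did not share this, at 103 and 107 CPM and at 293 and 305 CPM in d2 and d3 EpiLC. In EpiSC the claudins were low again (*Cldn3* 5.17, *Cldn4* 0.627, *Cldn7* 35.2 CPM) whereas *Krt8* was at 128 CPM.

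Few mesenchymal genes differed. Of 10 measured members of 18, 0 were lower and 2 higher (20.0%, against 3.44% of all genes), *Acta2* and *Tagln*, which also belong to the actin list. *Vim* (vimentin) was at 44.9 and 41.6 CPM, *Fn1* (fibronectin) at 36.1 and 28.5 CPM, *Cdh2* (N-cadherin) at 2.96 and 1.85 CPM and *Snai1*, a repressor of E-cadherin, at 2.33 and 2.13 CPM in d2 and d3 EpiLC. Of 13 genes of the basement membrane, 1 was higher (7.69%, against 3.44% of all genes), *Col4a2* at 1.17 and 3.98 CPM.

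The highest log2 ratio outside these groups was that of *Fgfbp1*, a secreted carrier of FGFs, at 3.41 CPM in d2 EpiLC and 86.8 CPM in d3 EpiLC, or 25.5-fold (95% interval 18.5 to 36.2). It was at 24.6 CPM in d1 EpiLC, so its level was low at d2 alone among the EpiLC stages. *Hes1*, a target of Notch that also answers other signals, was at 39.4 and 221 CPM, and the intermediate filament gene *Nes* at 10.6 and 49.3 CPM in d2 and d3 EpiLC. Among abundant genes, *Cst3* (an inhibitor of cysteine proteases), *Lgals1* (a galectin) and *Tagln2* had ratios of 3.37, 2.32 and 3.16.

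The naïve genes had nearly all been shut down by d2, with a summed level of 2727 CPM in 2i ESC, 509 in d1 EpiLC and 106 in d2 EpiLC, and at d3 the sum was 173 CPM. Of 13 measured members of 16, 3 were higher (23.1%, against 3.44% of all genes), *Klf2*, *Klf4* and *Nanog*. The 2 that were lower (15.4%, against 3.10% of all genes) were *Nr0b1* (5.38 and 0.426 CPM in d2 and d3 EpiLC) and *Gbx2* (5.38 and 0.781 CPM). *Klf2* and *Klf4*, Krüppel-like factors of the naïve network, were at 13.2 and 55.5 CPM and at 4.12 and 16.3 CPM in d2 and d3 EpiLC, against 485 and 247 CPM in 2i ESC. *Nanog*, the homeobox factor of pluripotency, was at 18.8 and 41.9 CPM, a ratio of 2.23-fold (95% interval 1.90 to 2.62), and at 44.5 CPM in EpiSC. Other naïve genes stayed under 2-fold on the scale of CPM + 1, which understates the ratio of rare genes. *Esrrb* was at 1.97 and 0.568 CPM, *Tbx3* at 1.17 and 0.213 CPM, *Tfcp2l1* at 0.896 and 2.56 CPM and *Zfp57* at 9.95 and 11 CPM, and *Prdm14* had 0 UMIs in both libraries, which allows up to 0.269 CPM in d2 and 0.213 CPM in d3 EpiLC at 3 counts.

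Genes of the core pluripotency list had lower levels at d3, and some passed 2-fold. Of 14 core pluripotency genes, 0 were higher and 4 lower (28.6%, against 3.10% of all genes), and 13 had a ratio below 1. *Dppa2* (ENSMUSG00000072419, chromosome 16, 48303908 to 48319723), a chromatin factor that primes developmental genes, was at 31.3 CPM in d2 EpiLC and 3.05 CPM in d3 EpiLC, 10.2-fold (95% interval 7.45 to 14.4) lower. *Dppa5a*, an RNA-binding protein of the same family name, was at 2121 and 824 CPM, *Tdh*, an enzyme of threonine breakdown on which mouse ESC depend, at 72.2 and 29.1 CPM, and *L1td1* at 183 and 82.2 CPM in d2 and d3 EpiLC. *Pou5f1*, which encodes OCT4, was at 1357 and 765 CPM, and *Sox2* at 58.1 and 32.3 CPM, both under 2-fold. *Pou5f1* was at 1495 CPM in 2i ESC, 1353 in d1 EpiLC and 1269.7 in EpiSC, so its level in d3 EpiLC was the lowest of the 5 stages. The list is not uniform in primed cells. In EpiSC *Dppa2*, *Dppa5a* and *Tdh* were nearly absent, at 0.940, 0.862 and 4.39 CPM, while *L1td1* was at 216 CPM, above d2 EpiLC. The share of UMIs from core genes lay below the 5th percentile of d2 cells in 86.2% of d3 cells.

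**Figure D3:**
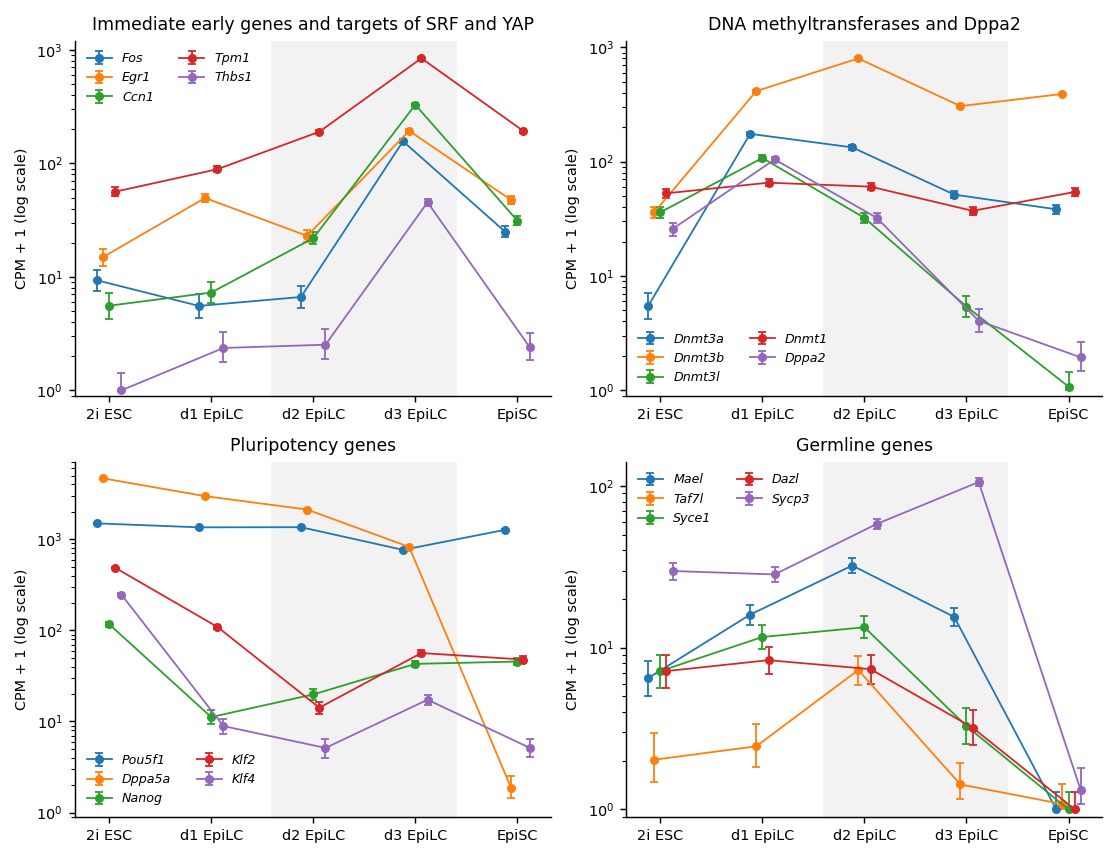
Levels (CPM + 1, log scale) of named genes at each of 5 stages, 1 library each, with exact 95% Poisson intervals, and d2 and d3 EpiLC shaded. *Fos*, *Egr1*, *Ccn1*, *Tpm1* and *Thbs1* peak at d3, *Dnmt3a*, *Dnmt3b*, *Dnmt3l* and *Dppa2* are lower at d3 than at d2, and *Sycp3* is higher at d3 while the other germline genes shown are lower.

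Both libraries expressed markers of the formative state. *Fgf5*, the marker most used for this state, was at 72.6 and 96.1 CPM in d2 and d3 EpiLC and at 0.228 CPM in 2i ESC, and *Otx2*, a factor of the formative and anterior epiblast, at 87.2 and 135 CPM. *Pou3f1*, an octamer factor of the early primed epiblast, was at 257 and 136 CPM, and *Foxd3* at 25.2 and 21.9 CPM. Of 21 formative genes, 0 were higher and 4 lower, namely *Dnmt3a*, *Dnmt3b*, *Dnmt3l* and *Etv4*, so *Fgf5* and *Otx2* stayed under 2-fold while the methyltransferases of the same list were lower.

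In the Nodal pathway the secreted inhibitors were the genes that were lower. *Lefty1* (ENSMUSG00000038793, chromosome 1, 180935022 to 180938400), an inhibitor and direct target of Nodal, was at 479 CPM in d2 EpiLC and 135 CPM in d3 EpiLC, 3.54-fold (95% interval 3.36 to 3.73) lower, and *Lefty2* at 45.8 and 14.8 CPM. *Nodal* itself was at 58.1 and 31.9 CPM, the ligand *Gdf3* at 41.8 and 20.9 CPM and the Activin antagonist *Fst* at 22.1 and 11.4 CPM, all under 2-fold on CPM + 1. The co-receptor *Tdgf1* was at 212 and 204 CPM and *Smad7*, an inhibitory SMAD, at 56.5 and 55.8 CPM, while *Smad3* was at 2.51 and 6.82 CPM and passed 2-fold upwards. In all, 1 of 19 measured members was higher (5.26%, near the 3.44% of all genes) and 2 were lower (10.5%, against 3.10%). *Lefty1* was at 216 CPM in d1 EpiLC and 698 CPM in EpiSC, above d3 EpiLC in both.

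FGF genes went both ways. The ligands *Fgf4* and *Fgf8* were at 32.8 and 12.4 CPM and 38.0 and 13.1 CPM in d2 and d3 EpiLC, and *Etv4*, an ETS factor downstream of FGF, at 36.2 and 16.7 CPM, all lower. The feedback phosphatase *Dusp6* was at 23.9 and 49.0 CPM, the receptor *Fgfr2* at 1.43 and 4.33 CPM and *Ier3* at 5.74 and 17.8 CPM, which with *Egr1* made 4 of 21 higher and 3 lower. The feedback genes *Spry2* (8.70 and 11.1 CPM) and *Spry4* (6.36 and 3.83 CPM) did not pass 2-fold. The summed level was 1.27 times that of d2 EpiLC, and 0.916 times (95% interval 0.822 to 1.02) in the 26 cells with few immediate early transcripts. *Egr1* also belongs to the list by which these cells were chosen. *Dusp9*, another MAP kinase phosphatase, was at 111 and 32.1 CPM, so phosphatases of this family went both ways.

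WNT and BMP genes, whose signals induce the germline from the epiblast, showed almost no 2-fold difference. Of 21 measured WNT genes 0 were higher and 0 lower, and the summed level was 0.900 times that of d2 EpiLC. *Axin2*, the standard target of WNT, was at 5.83 and 7.31 CPM in d2 and d3 EpiLC, *Lef1*, a nuclear effector, at 48.2 and 25.8 CPM, and *Wnt3*, the ligand that induces the streak, at 4.39 and 3.20 CPM. Of 19 BMP genes, 1 was higher (5.26%, near the 3.44% of all genes). This was *Id1*, a direct target of BMP that also belongs to the early response to serum, at 1.70 and 17.0 CPM. The related targets *Id2* and *Id3* were at 18.5 and 16.8 CPM and 19.2 and 23.1 CPM, and the receptor genes *Bmpr1a* and *Bmpr2* at 19.9 and 19.8 CPM and 5.38 and 6.6 CPM. The summed level of the BMP list was 1.01 times that of d2 EpiLC.

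Streak genes were nearly absent on both days. Of 20 listed genes only 6 reached 10 UMIs over both libraries, 0 were higher and 1 was lower (*Fgf8*). *T*, the brachyury gene, had 1 UMI in d2 and 4 in d3 EpiLC, *Eomes* was at 3.41 and 2.34 CPM and *Mixl1* had 3 and 0 UMIs. In EpiSC *T* was at 84.5, *Eomes* at 28.6 and *Mixl1* at 17.0 CPM. With each cell thinned to 20070 UMIs, 1 of 359 d3 cells (0.279%, 0.00705% to 1.54%) had at least 2 of 6 streak genes (*T*, *Mixl1*, *Eomes*, *Mesp1*, *Evx1* and *Wnt3*), beside 1 of 273 d2 cells, 0 of 214 2i ESC (up to 1.40% at 3 counts) and 128 of 346 EpiSC (37.0%). Unthinned, 4 of 399 d3 cells and 8 of 289 d2 cells had at least 2. The d3 share was within counting error of that of 2i ESC, which should lack these genes.

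Genes that define other lineages were at or near 0 on both days. The early neural list as a whole was not, with a summed level of 156 and 185.3 CPM in d2 and d3 EpiLC, a ratio of 1.18 (95% interval 1.11 to 1.26), and 32.5 CPM in 2i ESC. Most of it came from *Sox11* (77.4 and 72.4 CPM), *Sfrp2* (59.9 and 59.2 CPM) and *Nes*. Of 6 early neural genes measured of 15, *Nes* was higher and the others stayed under 2-fold, and *Sox1* and *Pax6*, which define neural cells, had 3 and 3 UMIs in d2 and 4 and 4 in d3 EpiLC. The 26 *Hox* and *Cdx* genes summed to 1.52 CPM in d2 and 0.852 in d3 EpiLC, against 32.6 in EpiSC. Trophoblast genes summed to 10.6 and 5.54 CPM, with 1 of 6 measured lower (*Ascl2*), and in the 26 cells with few immediate early transcripts their sum was 1.36 times d2 EpiLC (95% interval 0.663 to 2.53) in place of 0.524. The 2-cell genes summed to 1.34 and 0.0710 CPM. Extraembryonic endoderm genes summed to 474 and 519 CPM, nearly all from *Apoe* and *Sparc*, which the epiblast also expresses, while *Gata6* and *Sox17*, which define that lineage, had 0 and 1 UMIs in d2 and 1 and 4 in d3 EpiLC.

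The de novo DNA methyltransferases were lower at d3. Of 12 genes that write, keep, read or remove DNA methylation, 3 were lower, 0 higher, and 11 had a ratio below 1. The de novo methyltransferase *Dnmt3b* (ENSMUSG00000027478, chromosome 2, 153649450 to 153687730) was at 798.4 CPM in d2 EpiLC and 305 CPM in d3 EpiLC, 2.62-fold (95% interval 2.52 to 2.72) lower, and *Dnmt3a* at 132 and 50.5 CPM, 2.62-fold lower. *Dnmt3l*, their cofactor without catalytic activity, was at 31.2 and 4.40 CPM, 7.09-fold lower, after 107 CPM in d1 EpiLC. In the 26 d3 cells with few immediate early transcripts *Dnmt3l* was at 22.3 CPM, within counting error of d2 EpiLC, but 11 of its 17 UMIs came from 2 cells nearest to other libraries. In the other 24 cells it was at 8.38 CPM, 0.269 times d2 EpiLC (95% interval 0.0979 to 0.591). *Dnmt1* and *Uhrf1*, which copy methylation after replication, were at 59.4 and 36.1 CPM and 101 and 72.0 CPM, and *Tet1*, which oxidizes methylcytosine, at 51.8 and 27.3 CPM, all under 2-fold. *Dnmt3b* at d3 stayed above the 34.9 CPM of 2i ESC, and after thinning to equal depth it had a UMI in 99.2% of d3 cells.

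Histone enzymes that write or remove H3K4 methylation, which the study examined at PGCLC enhancers, did not pass 2-fold. Of 20 genes 0 were higher and 0 lower. *Kmt2c* and *Kmt2d*, which encode MLL3 and MLL4, the H3K4 monomethyltransferases of enhancers, were at 9.95 and 12.3 CPM and 10.2 and 11.4 CPM in d2 and d3 EpiLC, with ratios of 1.23-fold (95% interval 0.967 to 1.58) and 1.12-fold (95% interval 0.875 to 1.43). *Kdm1a*, an H3K4 demethylase, was at 96.1 and 86.6 CPM, and *Kdm5b*, another, at 131 and 83.4 CPM.

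Genes of PGC specification were rare on both days, and 4 of the 9 measured were lower at d3 (44.4%, against 3.10% of all genes). *Prdm1*, which encodes BLIMP1, a repressor that PGC need, was at 4.66 and 1.78 CPM in d2 and d3 EpiLC (52 and 25 UMIs), 2.63-fold (95% interval 1.6 to 4.42) lower. *Dppa3* (STELLA) was at 2.15 and 0.568 CPM (24 and 8 UMIs). Both lay at the edge of the 2-fold rule, with log2 ratios of -1.03 and -1.01, and under median-of-ratios scaling (-0.996 and -0.98) or without predicted doublets (-0.92 and -0.96) neither passed it, which left 2 of the 4. The interferon-induced transmembrane genes *Ifitm1* and *Ifitm3*, surface markers of early PGC, were at 30.3 and 8.52 CPM and 126 and 50.0 CPM. *Tfap2c*, the third factor of the PGC network beside *Prdm1* and *Prdm14*, had 1 UMI in d2 and 6 in d3 EpiLC, a ratio of 4.75-fold (95% interval 0.577 to 219), and *Dnd1* was at 9.23 and 9.23 CPM. The summed level was 0.443 times that of d2 EpiLC in all d3 cells and 0.782 times in the 26 with few immediate early transcripts, where *Ifitm1* and *Dppa3* were not lower. Without the 2 of these cells that were nearest to other libraries the sum was 0.529 times (95% interval 0.409 to 0.674). *Ifitm1* was then 0.599 times d2 EpiLC (95% interval 0.316 to 1.04) and *Dppa3* was at 0 CPM. No measured gene of this list was higher, and 3 of its 12 genes had under 10 UMIs. *Ifitm1* and *Ifitm3* are close paralogs, so their counts are uncertain.

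Germline genes of meiosis and of transposon defence, which the epiblast begins to silence, were often lower. Of 31 measured of 38 listed, 9 were lower (3.10% over all genes) and 0 higher, 26 had a ratio below 1, and the median log2 ratio was -0.52 (-0.94 with no pseudocount). *Taf7l* (ENSMUSG00000009596, chromosome X, 134460118 to 134476490), a subunit of the transcription factor TFIID in germ cells, was at 6.27 CPM in d2 EpiLC and 0.426 CPM in d3 EpiLC, 14.7-fold (95% interval 6.44 to 41.5) lower. *Syce1*, of the synaptonemal complex, was at 12.4 and 2.27 CPM, *Sycp1*, of the same complex, at 4.48 and 1.21 CPM, and *Hormad1*, of meiotic chromosome axes, at 3.68 and 0.781 CPM in d2 and d3 EpiLC. *Mael* and *Tdrd12*, of the piRNA pathway, were at 31.2 and 14.5 CPM and 20.9 and 9.73 CPM, the latter under 2-fold with median-of-ratios scaling or without doublets, and *Dazl*, an RNA-binding protein of germ cells, at 6.36 and 2.20 CPM. *Rpl10l*, a ribosomal protein gene of the testis, was at 7.62 and 2.34 CPM, and *Stk31* at 2.78 and 0.852 CPM. *Rpl10l* is a retrocopy of *Rpl10*, so its count is uncertain.

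Other germline genes were not lower by this rule. *Ddx4*, the germ cell helicase, was at 7.08 and 6.25 CPM, *Dmc1*, the meiotic recombinase, at 5.74 and 7.39 CPM and *Sycp3*, of the synaptonemal complex, at 57.2 and 105 CPM, a ratio of 1.83-fold (95% interval 1.67 to 2.01). *Syce2* (222 and 156 CPM) and *Sycp3* had the highest levels of the list, and the summed level was 0.789 times that of d2 EpiLC (0.986 times in the 26 d3 cells with few immediate early transcripts). In EpiSC the list was lower, at 143 CPM against 475 in d2 and 375 in d3 EpiLC, of which 108 CPM were *Syce2*.

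Many promoters of germline genes hold the E-box CACGTG, which MAX binds with MGA in the repressive complex PRC1.6. The 250 bases before the start are shown for 3 genes that were lower in d3 EpiLC and hold it (GRCm38.p6, 5' to 3' in the direction of the gene, E-box in capitals): *Taf7l* at chrX:134476491-134476740, - strand, *Hormad1* at chr3:95559427-95559676, + strand, which holds 2 copies, and *Sycp1* at chr3:102936101-102936350, - strand.
Taf7l: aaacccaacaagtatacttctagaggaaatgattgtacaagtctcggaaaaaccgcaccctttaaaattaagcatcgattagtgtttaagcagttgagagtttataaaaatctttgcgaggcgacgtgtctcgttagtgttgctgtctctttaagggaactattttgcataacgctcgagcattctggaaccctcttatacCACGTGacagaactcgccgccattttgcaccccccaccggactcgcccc
Hormad1: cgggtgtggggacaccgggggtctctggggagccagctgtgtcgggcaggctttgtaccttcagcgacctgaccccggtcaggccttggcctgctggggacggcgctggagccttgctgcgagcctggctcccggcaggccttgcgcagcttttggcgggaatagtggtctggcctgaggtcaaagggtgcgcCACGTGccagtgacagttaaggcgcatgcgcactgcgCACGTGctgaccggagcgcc
Sycp1: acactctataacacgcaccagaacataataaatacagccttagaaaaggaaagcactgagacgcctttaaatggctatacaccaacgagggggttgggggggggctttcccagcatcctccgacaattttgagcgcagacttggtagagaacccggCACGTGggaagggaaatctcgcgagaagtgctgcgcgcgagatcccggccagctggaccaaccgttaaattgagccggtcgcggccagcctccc

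The E-box is its own reverse complement and cannot overlap the CArG box. It was found in 5 of the 9 germline genes that were lower (*Mael*, *Sycp1*, *Stk31*, *Hormad1* and *Taf7l*), in 13 of the 33 listed germline genes with a promoter in the table, and in 6.86% of all 27025 genes. *Ddx4* and *Sycp3*, which were not lower, hold it too. Among DNA methylation genes it was found before *Dnmt3a*, *Dnmt3l* and *Tdg*, a glycosylase.

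Genes that repress the germline program did not pass 2-fold in either direction. Of 20 genes 17 had a ratio below 1, with a median log2 ratio of -0.32. *Mga*, *Max* and *E2f6*, of PRC1.6, were at 61.5 and 44.1 CPM, 44.9 and 37.3 CPM and 19 and 16.4 CPM in d2 and d3 EpiLC. *Pcgf6*, of the same complex, was at 71.4 and 46.2 CPM, *Ehmt2*, an H3K9 methyltransferase, at 40.0 and 23.5 CPM, and *Setdb1*, another, at 26.0 and 16.1 CPM. Whether these mRNA levels bear on the germline genes was not tested.

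The study defined a set of 389 PGCLC genes on cells of embryoid bodies, so d2 and d3 EpiLC took no part in the choice. Of 380 measured members, 55 were lower (14.5%, against 3.10% of all genes), 7 higher (1.84%) and 262 had a ratio below 1, with a median log2 ratio of -0.28. Members that were lower and are named here were *Dppa2*, *Hsd17b14*, *Platr17*, *Nr0b1*, *Fkbp6*, *Rbmxl2*, *Lefty1*, *Fgf4*, *Tdh*, *L1td1*, *Prdm1* and *Dppa3* (the last 2 under 2-fold with median-of-ratios scaling or without doublets), and those that were higher *Nanog* and *Crb3*. *Hsd17b14*, a short-chain dehydrogenase, had the lowest log2 ratio of all genes with at least 100 UMIs, at 27.8 CPM in d2 EpiLC and 2.20 CPM in d3 EpiLC after 207 in d1 EpiLC. *Platr17*, a transcript linked to pluripotency, was at 59.2 and 9.73 CPM and *Fkbp6*, of the piRNA pathway, at 10.6 and 1.35 CPM.

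Where the study linked PGCLC genes to enhancers, it placed in Group I the enhancers with more H3K4me1, a histone mark of enhancers, in EpiLC than in EpiSC, and the others in Group II. Of 165 measured genes linked to Group I, 25 were lower (15.2%, against 3.10% of all genes) and 6 higher (3.64%, near the 3.44% of all genes; median log2 ratio -0.25). Of 38 linked to Group II alone, 4 were lower (10.5%) and 0 higher (median -0.26). The summed level was 0.793 times that of d2 EpiLC for Group I and 0.611 times for Group II alone. The latter rested on *Lefty1*, and without this gene it was 0.830 times (95% interval 0.805 to 0.856), beside 0.793 (95% interval 0.784 to 0.803) for Group I, which does not hold it.

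The study's sets of genes typical of a stage had been chosen by comparing ESC, d2 EpiLC and EpiSC, each with the others. The levels of a set in these stages are therefore not independent of its choice. Of the EpiLC set 45 of 389 were lower (11.6%, against 3.10% of all genes) and 16 higher (4.11%, near the 3.44% of all genes). Of the EpiSC set 72 of 537 were higher (13.4%) and 11 lower (2.05%). Summed levels in d2 EpiLC, d3 EpiLC and EpiSC were 10316, 8359 and 3392 CPM for the EpiLC set and 4599, 6965 and 12709 CPM for the EpiSC set. The sets were chosen to differ between d2 EpiLC and EpiSC, so these sums do not place d3 EpiLC between them. Members of the EpiSC set that were higher included *Fos*, *Jun*, *Ccn1* and *Btg2*, whose levels in EpiSC (24.0, 24.7, 30.3 and 53.6 CPM) were below those of d3 EpiLC. In the ESC set 69 of 463 were lower (14.9%) and 23 higher (4.97%).

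**Figure D4:**
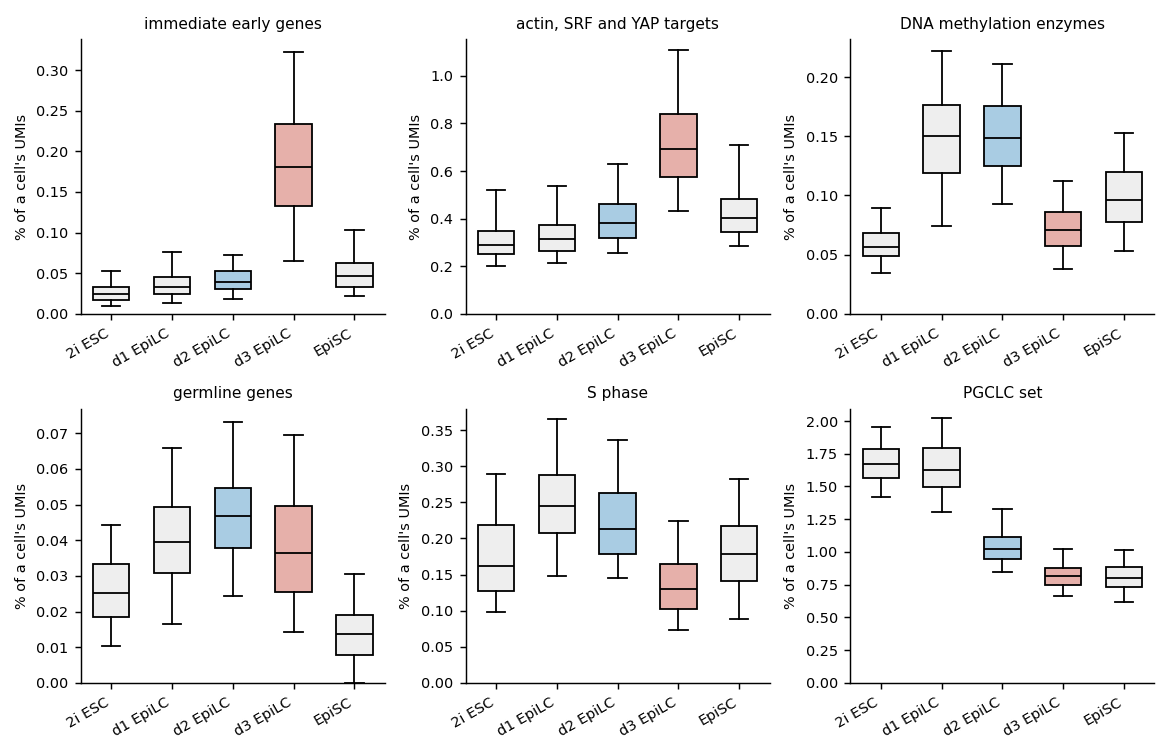
Share of each cell's UMIs that came from 6 gene lists, by stage. Boxes give the quartiles and median over the cells of 1 library and whiskers the 5th and 95th percentiles. Immediate early genes in d3 EpiLC (median 0.181%) lie above every other stage, and DNA methylation genes and the PGCLC set are lower in d3 than in d2 EpiLC.

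Glycolysis had a lower summed level at d3. Of 27 genes of glycolysis and hypoxia 3 were lower (11.1%, against 3.10% of all genes) and 1 higher (3.70%, near the 3.44% of all genes). The summed level was 12869 CPM in d2 and 7806 CPM in d3 EpiLC. *Ldha*, lactate dehydrogenase, was at 2450.4 and 1093 CPM, *Bnip3*, a mitophagy gene induced by hypoxia, at 157 and 55.0 CPM, and *Gapdh*, under 2-fold, at 3956 and 2275 CPM. The glucose transporters *Slc2a1* and *Slc2a3* were at 111 and 153 CPM and 74.8 and 131 CPM and the hypoxia target *Ndrg1* at 3.50 and 10.0 CPM, above their d2 levels. *Ldha* and *Bnip3* were at 598 and 28.3 CPM in d1 EpiLC, below d2 EpiLC as well, and at 1505 and 42.3 CPM in EpiSC.

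Nucleolar and MYC target genes, a list of 24 drawn up after the values had been seen, were lower in 9 cases and had a ratio below 1 in 24. *Srm*, spermidine synthase, was at 484 and 153 CPM in d2 and d3 EpiLC, *Bop1*, of ribosome assembly, at 64.4 and 22.9 CPM, and *Prmt1*, an arginine methyltransferase, at 545 and 248 CPM. *Myc* itself was at 11.8 and 9.02 CPM. The 77 cytosolic ribosomal proteins, also collected afterwards, had a median share of 33.9% of a cell's UMIs in d2 and 38.2% in d3 EpiLC, and the CPM of all other genes are relative to a total that includes them.

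Replication genes had lower levels throughout. Of 22 genes of S phase 3 were lower (13.6%, against 3.10% of all genes) and all 22 had a ratio below 1, with a median log2 ratio of -0.59. *Rrm2*, of nucleotide synthesis, was at 199 and 77.9 CPM, *Ccne1*, cyclin E1, at 193 and 89.3 CPM and *Tyms*, thymidylate synthase, at 113 and 53.3 CPM in d2 and d3 EpiLC. Of 22 genes of mitosis 0 were lower and 0 higher, 15 had a ratio below 1, and the summed level was 0.952 times that of d2 EpiLC (95% interval 0.937 to 0.966), but 1.33 times (1.28 to 1.39) in the 26 cells with few immediate early transcripts. *Mki67* was at 30.8 and 48.6 CPM. *Cdkn1a*, the cell cycle inhibitor p21, was at 45.5 and 105 CPM and *Cdkn2a*, of the INK4a locus, at 9.77 and 0.852 CPM. Of 19 p53 targets 3 were higher (15.8%, against 3.44% of all genes), *Cdkn1a*, *Btg2* and *Perp*, and 0 lower.

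Sterol synthesis genes were all below a ratio of 1 (21 of 21), with a summed level 0.728 times that of d2 EpiLC. *Hsd17b7*, an enzyme of this pathway, was at 9.86 and 4.33 CPM in d2 and d3 EpiLC and was lower, though under 2-fold with median-of-ratios scaling. Genes of the amino acid stress response were level, with *Atf5* (18.1 and 53 CPM) the 1 that was higher. Mitochondrially encoded genes were level in sum, at 0.899 times the d2 level, and the 2 that were higher, *mt-Nd4l* (31.1 and 69.0 CPM) and *mt-Nd6* (3.85 and 12.2 CPM), are the rare ones. *mt-Nd4l* overlaps *mt-Nd4*, so its reads may be shared.

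Interferon and antigen processing genes, collected after the values had been seen, went both ways. The immunoproteasome subunits *Psmb8* and *Psmb10* were at 11.3 and 1.21 CPM and 171 and 71.6 CPM, and *Ifi35* and *Parp12*, induced by interferon, at 10.8 and 1.56 CPM and 8.25 and 1.42 CPM, all lower. *B2m*, the light chain of class I molecules, was at 24.2 and 55.1 CPM and the chemokine *Cxcl10* at 0.717 and 8.24 CPM, both higher. Of 20 measured, 6 were lower and 2 higher.

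Of 26 measured imprinted genes 3 were lower (11.5%, against 3.10% of all genes) and 0 higher. The 3 were *Dlk1* (5.29 and 0.994 CPM), *Cdkn1c* (50.2 and 21.5 CPM) and *Dcn* (3.85 and 1.42 CPM, under 2-fold with median-of-ratios scaling). *Xist*, the RNA that coats the inactive X chromosome of female cells, was at 38.9 and 7.74 CPM and had a UMI in 14.2% of d2 and 6.52% of d3 cells. The line is male, and the source of these transcripts was not tested. Genes with low ratios that belong to no list by role were *Cnih2*, an auxiliary subunit of glutamate receptors (43.1 and 8.17 CPM), *Nefh*, a neurofilament (10.2 and 1.21 CPM), *Gpx2*, a glutathione peroxidase (10.8 and 1.49 CPM), *Npr1*, a natriuretic peptide receptor (10.0 and 1.56 CPM), and *Tstd1* (7.98 and 0.781 CPM).

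Shares of cells with a UMI were compared at equal depth. After thinning every cell to 20070 UMIs, which left out 16 d2 and 40 d3 cells below that, 153 of 13240 genes (1.16%) had a UMI in a share of cells at least 20 percentage points higher in d3 EpiLC and 153 (1.16%) in a share at least 20 points lower. The largest rises were *Ccn1* (27.1% and 96.7% of d2 and d3 cells; 40.1% and 97.2% unthinned), *Fos* (10.3% and 77.7%; 15.9% and 83.7% unthinned), *Jun* (19.4% and 83.8%), *Junb* (24.5% and 84.4%) and *Fgfbp1* (6.23% and 65.2%). The largest falls were *Platr17* (63.0% and 16.2%; 81.7% and 24.6% unthinned), *Cnih2* (57.1% and 14.5%), *Dusp9* (82.1% and 40.7%), *Dppa2* (45.1% and 6.13%; 63.7% and 8.27% unthinned) and *Rbmxl2* (68.9% and 31.2%). Thinned shares in 2i ESC were 6.54% for *Ccn1* and 12.1% for *Fos*, and in EpiSC 2.89% for *Platr17* and 1.73% for *Dppa2*.

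For these germline genes EpiSC give the background, with 0, 0 and 0 UMIs of *Mael*, *Syce1* and *Dazl* and 1 of *Taf7l* in the library. *Mael* was detected in 40.3% and 22.3% of thinned d2 and d3 cells and in 0% of EpiSC, *Syce1* in 19.4% and 3.90% and 0%, *Dazl* in 11.7% and 5.29% and 0%, and *Taf7l* in 9.89% and 1.11% and 0%, at unthinned median depths of 35956, 31893 and 31587 UMIs. In d3 EpiLC these shares were lower than in d2 EpiLC and still above EpiSC for *Mael*, *Syce1* and *Dazl*. *Nanog*, by contrast, was detected in 30.4% and 51.3% and *Klf2* in 15.8% and 47.6% of thinned d2 and d3 cells, higher in d3 EpiLC.

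**Figure D5:**
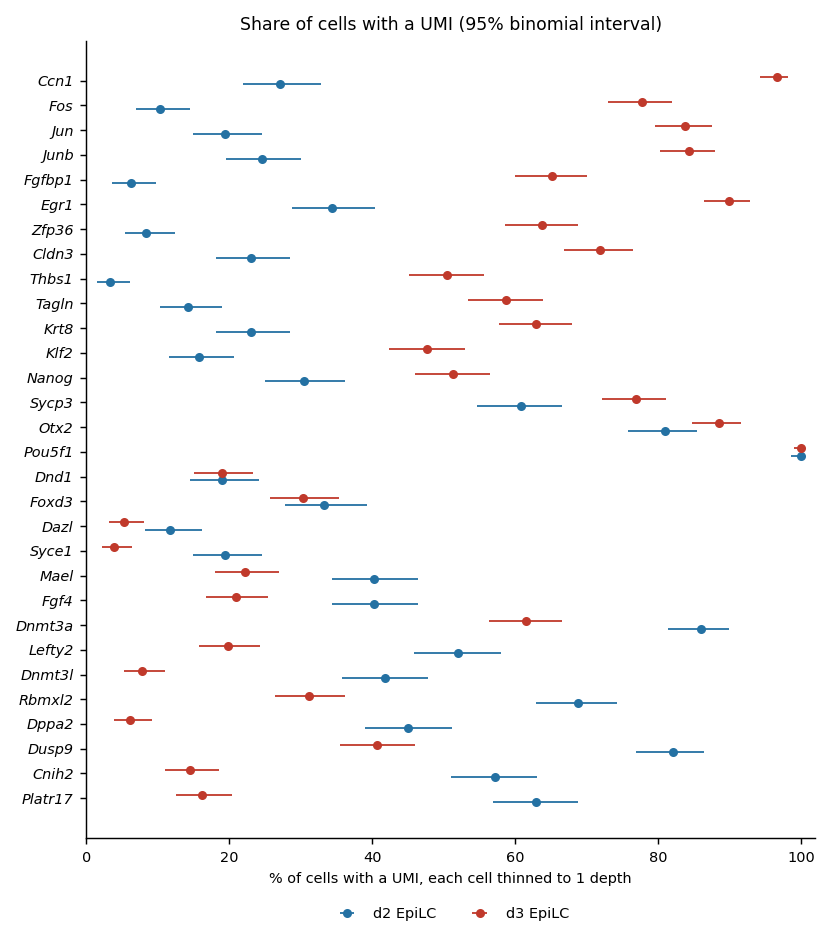
Share of cells with a UMI of each gene after every cell was thinned to 20070 UMIs, in d2 EpiLC (273 cells, blue) and d3 EpiLC (359 cells, red), with exact 95% binomial intervals. Genes are ordered by the difference, from *Ccn1* (27.1% and 96.7%) at the top to *Platr17* (63.0% and 16.2%) at the bottom.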

How the data were processed

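Single cells of the E14Tg2a line were profiled with the 10x Genomics 3' v2 chemistry. Per the labels and the study's methods, the authors aligned reads and counted UMIs with Cell Ranger on GRCm38 and combined libraries with reads per cell brought to equal mapped depth. The deposited table holds UMI counts of 27998 genes in 2782 cells and has no column that was left unused. In it, 1 barcode is shorter than the others. Stages were read from the barcode suffix. The table of the R1 line and the embryoid body libraries are not used here.

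UMIs were summed per library, scaled to CPM and compared as log2 of the d3 over the d2 level with a pseudocount of 1 CPM, for genes with at least 10 UMIs over both libraries. Differences of at least 2-fold are called. With 1 library a side there is no replicate check and no test. Levels have exact Poisson, ratios exact conditional and shares Clopper-Pearson 95% intervals, which cover counting error only, and a count of 0 is set to a floor of 3 counts. Cells were thinned to 20070 UMIs with seed 1 for shares of cells. Neighbors came from 2000 variable genes and 20 components (scikit-learn 1.9.0), and predicted doublets from Scrublet (scanpy 1.11.5), which marked 18 d2 and 21 d3 cells. These stay in except where stated. The calls and intervals were checked on Poisson counts simulated with known changes. These hold no variation between cells, cultures or libraries, so the check does not cover it. Gene positions are those of GENCODE on GRCm38.

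Named genes are the 15 highest and 15 lowest log2 ratios among genes with at least 100 UMIs, the 8 highest and 8 lowest among genes of at least 200 CPM, the 5 largest rises and falls in share of cells, listed genes past 2-fold with at least 20 UMIs, up to 4 defining genes a list, and genes the study names. Further list members given with values were chosen after the values were seen. The members and lists were chosen with earlier results of these data known, and the lists of actin targets, nucleolar, interferon and ribosomal genes after the values were seen. Alternatives were other pseudocounts and minimum counts, median-of-ratios scaling, leaving out doublets, ribosomal and mitochondrial genes or d3 cells with high immediate early genes, thinning, and another seed.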

Additional observations from a re-analysis of the deposited data

How the results depend on the processing

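No paired analysis was possible because each stage is 1 library, and for the same reason no replicate could be left out. The 455 higher and 411 lower genes became 1010 and 905 with a pseudocount of 0.1 CPM and 154 and 114 with 5 CPM, 735 higher without ribosomal and mitochondrial genes, 215 lower among genes with at least 100 UMIs, and 842 and 1248 in the 26 d3 cells with few immediate early transcripts, a setting chosen after seeing the data. These 26 cells held 761957 UMIs, against 14082462 in all d3 cells. Their calls thus rest on far fewer UMIs per gene and hold more counting error. With median-of-ratios scaling, without doublets or shallow cells, with thinned cells or as a mean over cells, 450 to 557 genes were higher and 375 to 457 lower. Higher genes were 52.5% of all calls, 61.8% without ribosomal and mitochondrial genes and 40.3% in the 26 cells. The summed level of the ESC set, 0.908 times d2 EpiLC, was 0.880 without its 5 most abundant members, 0.936 with median-of-ratios scaling, and above 1 at 1.07 over genes of that set alone and at 1.08 in the 26 cells. For the EpiLC set, 0.810 became 0.876 without the 5 most abundant members, 0.836 with median-of-ratios scaling and 0.877 in the 26 cells. For the EpiSC set, 1.51 became 1.36 without the 5 most abundant members, 1.56 with median-of-ratios scaling, 1.28 as the median of gene ratios and 1.30 in the 26 cells. For the PGCLC set, 0.784 became 0.821 without the 5 most abundant members, 0.792 over genes of that set alone, 0.809 with median-of-ratios scaling, 0.793 with thinned cells, 0.826 as the median of gene ratios and 0.903 in the 26 cells. The share of thinned d3 cells with streak genes was 0% for at least 3 genes and 10.6% for at least 1. The cause of these shifts was not tested. Median-of-ratios scaling moved the median log2 ratio from -0.02 to 0.01. Of the 35 lists by role, leaving out predicted doublets moved none beyond its counting interval, median-of-ratios scaling moved 20 and the 26 cells 26. The last count leaves out the counting error of the 26 cells themselves. For WNT signaling, counted as moved, the interval of 0.876 to 1.09 in these cells overlapped that of 0.868 to 0.934 in all d3 cells. In the 26 cells the sums of 4 lists whose intervals in all d3 cells excluded 1 lay on its other side. FGF and ERK signaling was 0.916 (counting interval 0.822 to 1.02) and amino acid stress 0.954 (0.908 to 1.0015) times d2 EpiLC. Trophoblast was 1.36 times (0.663 to 2.53). These intervals included 1, so no reversal is shown for these lists. Mitosis was 1.33 times (1.28 to 1.39), with an interval wholly above 1. Leaving out *Lefty1*, or the 2 cells nearest to other libraries, was also chosen after seeing the data. Genes under 10 UMIs were not called, and at the floor of 3 counts a level below 0.269 CPM in d2 or 0.213 CPM in d3 EpiLC could not be detected.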
